A study of Mus musculus with 18 samples.

Results

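The genes described here are Myc, the coactivator Pprc1, and genes whose products make ribosomes in the nucleolus, from subunits of RNA polymerase I to the factors that assemble both ribosomal subunits. The list holds 40 genes, and 38 of them were measured on a probe set of their own, of 19475 genes measured in all. Noc2l was on no probe set of the table used here, and Ppan was only on a probe set that it shares with another gene. The list was drawn up because these genes fell with lipopolysaccharide (LPS) and fell less without Wbp7, so those values are given as a description of the genes and not as a test of the choice.

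The cells were primary macrophages grown from mouse bone marrow in medium conditioned by L929 cells and used on day 7 of differentiation. All mice had a mixed C57BL/6 and 129/Ola background. The control genotype, HET, carried a single working copy of Wbp7 (Wbp7+/-), and the other, KO, carried none (Wbp7-/-). The Wbp7 protein, also named Kmt2b, methylates histone H3 at lysine 4, and the controls are themselves heterozygous for its loss, so no group had both copies. Each genotype was left untreated or given LPS, the bacterial endotoxin that activates Tlr4, at 10 ug/ml for 2 h or 4 h, with 3 arrays in each of the 6 groups. The labels do not say whether replicates came from separate mice or cultures, so the p-values measure only the spread between these arrays, whose number limits the precision of every value.

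Myc is a transcription factor that binds DNA as a dimer with Max, at E boxes such as CACGTG, and is best known for driving cell growth. Among its established targets are the genes of ribosome production: RNA polymerase I transcribes the ribosomal RNA precursor in the nucleolus, small nucleolar ribonucleoproteins (snoRNPs) guide its modification and first cleavage, and large sets of assembly factors fold and trim the small and the large subunit. Macrophages grown in colony-stimulating factor from conditioned medium express Myc and divide, and LPS is known to stop their proliferation.

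Levels below are log2 signals. Differences are log2 differences between group means, with the SE (standard error) that limma estimated. A gene is said to have risen, fallen or passed where limma gave it an adjusted p under 0.05, corrected over all 19475 genes by the Benjamini-Hochberg method. The difference in response is the LPS change in KO minus the LPS change in HET, so a positive value means that a gene fell less, or rose more, in KO. It shares its untreated and treated arrays with the separate comparisons, which are therefore not independent of it or of each other. The samples are bulk RNA, in which fewer expressing cells and less RNA per cell cannot be told apart.

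Promoters were searched for the sequence bound by Myc and Max because the members fell together. Of the 40 genes, 33 had an entry in the RefSeq promoter table (build GRCm38.p6, 300 bases around each annotated start). There was none for Myc, Fbl, Rrs1, Gnl2, Npm1, Bop1 or Rrp12. CACGTG, which reads the same on both strands, was present in 7 of the 33 (21.2%), against 8.09% of all genes in the table. The looser E box CANNTG, which includes every CACGTG, was present in 63.6% of the members and 75.0% of all genes. The members' promoters had a median GC content of 58.7%, against 52.7% for all promoters of the table. They held a median of 21 sites where C is followed by G, against 7, and CACGTG itself contains such a site. The part of base composition in the motif shares was not tested. The 6 matched members with the largest difference in response are shown, 5′ to 3′ along the gene's own strand, with the match in capitals.

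Tsr1: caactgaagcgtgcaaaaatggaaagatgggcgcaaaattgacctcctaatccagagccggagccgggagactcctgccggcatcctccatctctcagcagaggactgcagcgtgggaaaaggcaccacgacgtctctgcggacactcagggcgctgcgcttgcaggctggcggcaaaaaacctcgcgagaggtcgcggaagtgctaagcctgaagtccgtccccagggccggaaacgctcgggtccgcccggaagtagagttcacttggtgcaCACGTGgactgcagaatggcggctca
Utp18: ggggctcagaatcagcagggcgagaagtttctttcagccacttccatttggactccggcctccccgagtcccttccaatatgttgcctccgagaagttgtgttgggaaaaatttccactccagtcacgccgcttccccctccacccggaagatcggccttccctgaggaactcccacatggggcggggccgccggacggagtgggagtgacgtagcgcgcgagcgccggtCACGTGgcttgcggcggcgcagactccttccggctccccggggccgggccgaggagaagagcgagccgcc
Nop2: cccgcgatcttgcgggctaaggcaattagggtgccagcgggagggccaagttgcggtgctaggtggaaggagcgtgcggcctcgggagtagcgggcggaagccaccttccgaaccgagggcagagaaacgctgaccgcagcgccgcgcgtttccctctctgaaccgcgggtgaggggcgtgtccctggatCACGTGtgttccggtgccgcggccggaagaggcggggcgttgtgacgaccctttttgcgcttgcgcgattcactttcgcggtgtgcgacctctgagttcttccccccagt
Utp20: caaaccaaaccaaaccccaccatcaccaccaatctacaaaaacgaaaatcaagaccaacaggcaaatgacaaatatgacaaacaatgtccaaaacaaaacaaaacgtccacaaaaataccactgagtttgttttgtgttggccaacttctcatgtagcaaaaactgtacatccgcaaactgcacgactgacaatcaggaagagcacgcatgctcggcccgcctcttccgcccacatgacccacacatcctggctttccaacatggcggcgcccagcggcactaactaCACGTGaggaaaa
Mybbp1a: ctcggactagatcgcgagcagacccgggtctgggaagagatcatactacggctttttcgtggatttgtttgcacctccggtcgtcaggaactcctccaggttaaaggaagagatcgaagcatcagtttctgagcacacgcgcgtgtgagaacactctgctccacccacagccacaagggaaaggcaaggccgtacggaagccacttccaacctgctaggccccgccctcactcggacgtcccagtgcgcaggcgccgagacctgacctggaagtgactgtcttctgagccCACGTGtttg
Pes1: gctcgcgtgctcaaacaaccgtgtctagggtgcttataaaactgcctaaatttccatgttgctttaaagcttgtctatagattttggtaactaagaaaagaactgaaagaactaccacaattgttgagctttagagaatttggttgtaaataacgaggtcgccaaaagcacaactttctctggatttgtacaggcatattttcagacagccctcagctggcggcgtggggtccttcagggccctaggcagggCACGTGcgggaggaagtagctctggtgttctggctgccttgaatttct

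These windows lie at chr11:74897830-74898129 on the plus strand (Tsr1), chr11:93885717-93886016 on the minus strand (Utp18), chr6:125131633-125131932 on the plus strand (Nop2), chr10:88826765-88827064 on the minus strand (Utp20), chr11:72441077-72441376 on the plus strand (Mybbp1a) and chr11:3963725-3964024 on the plus strand (Pes1). The match began 20 bases before the start in Utp18 and 60 before it in Nop2. It began 2 bases after the start in Pes1, 24 after it in Tsr1, 37 after it in Utp20 and 40 after it in Mybbp1a. Wdr43 had the remaining match, 17 bases after its start. The median difference in response at 4 h was 0.45 over the 7 members with a match and 0.61 over the 24 measured members without one. A match describes these letters only, and binding was not measured. Of 69 other ribosome biogenesis genes with an entry, 14 held the motif (20.3%). Among the remaining lists the share ran from 10 of 30 Myc targets outside the nucleolus (33.3%) and 4 of 12 genes of the Myc and Max network (33.3%), through 4 of 15 RNA polymerase III genes (26.7%) and 6 of 58 ribosomal protein genes (10.3%), to 1 of 29 cell cycle genes (3.45%). The lists of markers were shorter, and 3 of 6 dendritic cell markers held it (50%).

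The HET arrays numbered replicate 1 stood apart from the other HET arrays at all 3 times. Their pairwise differences within a group had an SD over all genes of 0.43 to 0.53, against 0.18 to 0.28 for the other pairs of replicates. Cell cycle genes lay far lower in them, by a median of −2.76 (untreated), −2.72 (2 h) and −2.17 (4 h) against the mean of the other HET arrays. The nucleolar genes differed less, with medians of 0.14, −0.13 and −0.45. The fit was also run without all 3 of them, and values from that fit are given beside many of the results below. The part of the cell cycle difference in the results was not tested. Macrophage markers were high on every array (10 measured, medians 12.73 to 13.61, with array medians of 8.05 to 8.13). Lymphocyte markers were low (8 measured, 6.28 to 6.72), as were erythroid markers (4 measured, 7.24 to 7.63). Neutrophil markers had medians of 7.90 to 9.04, stromal markers 7.26 to 8.46 and dendritic cell markers 7.10 to 8.13. The probe set of Wbp7 itself did not pass between the genotypes at any time. Every untreated KO array lay below every untreated HET array for Wbp7, with means of 10.41 ± 0.0627 in KO and 10.66 ± 0.27 in HET (SD, n = 3), and at 2 h and 4 h the genotypes overlapped.

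Myc started high in both genotypes. Its fall with LPS passed in HET and not in KO, and the difference between these responses did not pass. HET arrays gave Myc signals of 12.59, 12.26 and 12.19 untreated, 9.96, 11.00 and 10.50 at 2 h, and 9.85, 9.80 and 11.20 at 4 h. KO arrays gave 12.01, 11.97 and 12.08 untreated, 11.73, 11.92 and 11.78 at 2 h, and 11.26, 12.03 and 11.96 at 4 h. After LPS every KO array lay above every HET array, while untreated every KO array lay below every HET array. The HET fall was −1.86 at 2 h and −2.06 at 4 h (SE 0.321, a 4.17-fold fall at 4 h, limma adjusted p = 0.000138). The KO change was −0.21 at 2 h and −0.27 at 4 h, and neither passed (adjusted p = 0.64 at 4 h).

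Untreated, Myc stood at −0.32 in KO minus HET. The same comparison gave 1.32 after 2 h of LPS (adjusted p = 0.04), and after 4 h it gave 1.47 (adjusted p = 0.0268). As a difference in response neither passed, at 1.64 for 2 h (adjusted p = 0.50) and 1.79 for 4 h (SE 0.454, adjusted p = 0.33). Replicates of treated HET cells were wide apart for this gene, with an SD of 0.793 at 4 h, where replicate 3 alone read above 11. With that array left out the difference in response at 4 h was 2.33 and passed (adjusted p = 0.0282). Without HET replicate 1 the difference in response at 4 h was 1.45, and the KO minus HET value at 2 h no longer passed. That call at 2 h was also absent with replicate number as a block within genotype.

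**Figure D1:**
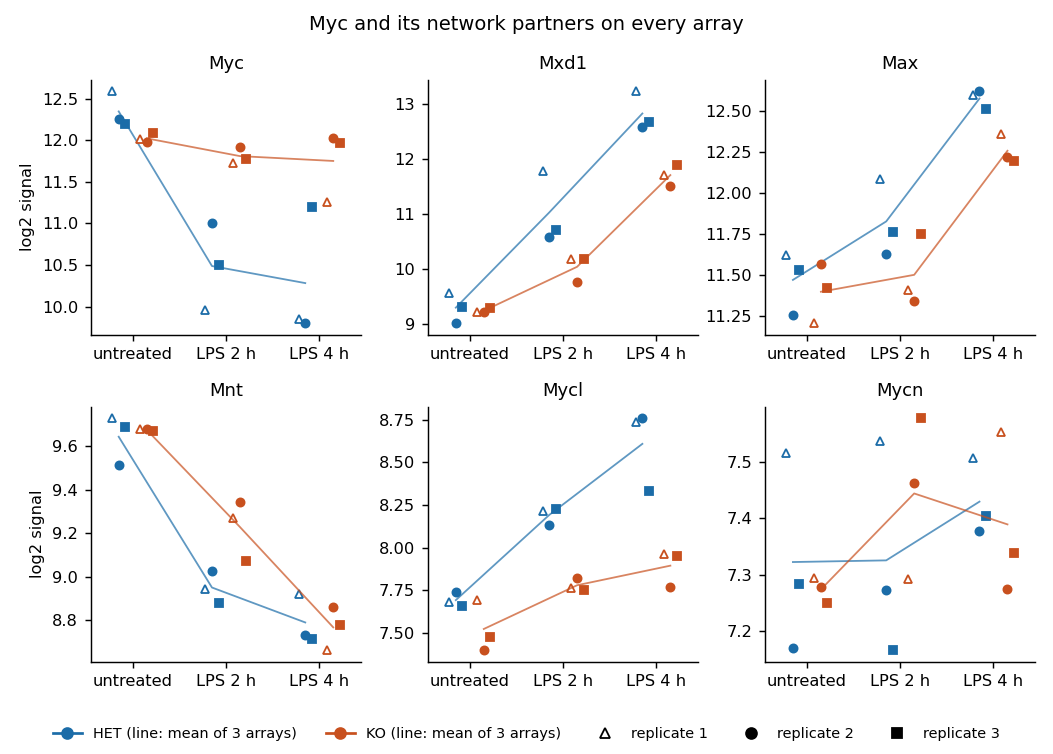
Log2 signal of Myc and of 5 genes of its dimerisation network (y axes, each with its own scale) untreated and at 2 h and 4 h of LPS (x axis), with HET in blue, KO in orange, symbols for the replicate numbers and lines through the means of 3 arrays. Myc fell from 12.35 to 10.28 in HET by 4 h and stood at 11.75 in KO, while Mxd1 rose in both genotypes.

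Myc's partners and competitors for DNA moved in both genotypes. Of the 12 measured genes of the Myc and Max network other than Myc, 8 passed in HET at 4 h (4 higher, 4 lower) and 6 in KO (3 higher, 3 lower). Of all genes 36.4% passed in HET at that time and 15.8% in KO. Over the alternatives the network count ran from 5 to 10 in HET and from 4 to 8 in KO. Mxd1, a repressor that competes with Myc for Max, had untreated HET signals of 9.56, 9.02 and 9.31 and 4 h signals of 13.22, 12.58 and 12.66. In KO, Mxd1 went from 9.21, 9.23 and 9.29 to 11.71, 11.50 and 11.89. At 2 h Mxd1 read 11.78, 10.57 and 10.71 in HET and 10.18, 9.76 and 10.18 in KO. Within each time of LPS every KO array lay below every HET array for Mxd1. Mxd1 rose by 3.52 in HET and by 2.46 in KO at 4 h, and KO minus HET at 4 h was −1.12 (adjusted p = 0.0346). HET replicate 1 was the highest Mxd1 array at 4 h. In KO minus HET at 4 h 2 network genes passed, where 2.42% of all genes did. Over the alternatives that count of network genes ran from 0 to 2.

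Max, the shared partner, rose by 1.11 in HET and 0.86 in KO at 4 h. Mnt, another Max-binding repressor, fell by 0.85 in HET and by 0.91 in KO at 4 h, and by 0.69 and 0.45 at 2 h. Mycl, a Myc relative, rose by 0.92 in HET and 0.37 in KO at 4 h, with KO minus HET at −0.71 (adjusted p = 0.00292). The Max-binding repressors Mxd3 and Mxd4 fell at 4 h in both genotypes, by 0.39 and 0.45 in HET and by 0.65 and 0.62 in KO. For Mxd3 the HET replicates differed in direction. Replicate 1 read 8.39 untreated and 8.57 at 4 h, while replicates 2 and 3 went from 9.11 and 9.04 to 8.39 and 8.42. Mxi1, of the same repressor family, fell in HET (−0.59), and Mlxip, a sensor of glucose metabolites, rose in HET (0.57). No network gene passed in the difference in response. The values were −1.06 for Mxd1, −0.54 for Mycl and −0.25 for Max at 4 h.

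Pprc1, a growth-regulated coactivator related to PGC-1, stood near its untreated level at 2 h and was lower at 4 h. HET arrays read 10.42, 9.86 and 9.89 for Pprc1 untreated, 10.26, 10.08 and 9.87 at 2 h, and 9.16, 8.87 and 8.93 at 4 h. KO arrays read 9.75, 9.99 and 10.00 untreated, 10.04, 9.92 and 10.00 at 2 h, and 9.35, 9.71 and 9.36 at 4 h. At 4 h all KO arrays lay above all HET arrays. Pprc1 fell by 1.07 in HET at 4 h (SE 0.151, adjusted p = 5.91e-05), where KO stood at −0.44 (adjusted p = 0.0604). Its difference in response at 4 h was 0.62 (SE 0.214, adjusted p = 0.518).

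After 2 h of LPS the nucleolar genes had hardly moved. The median change over the 38 members was −0.14 in HET and 0.04 in KO, against 0.02 over all genes in each genotype. The HET median depended on the replicates: it was −0.01 without HET replicate 1, with 3 members that passed (14.3% of all genes), and −0.23 without HET replicate 3. In HET 4 members passed, where 15.6% of all genes did: Myc was lower, and Rrs1 (0.92), Wdr43 (0.53) and Noc4l (0.39) were higher. In KO Rrs1 alone passed (0.99), where 3.35% of all genes did. Replicate number as a block within genotype gave 8 members in HET, adding Gnl2 higher and Bysl, Tsr1 and Wdr12 lower, and 2 in KO, adding Wdr43. No member passed in the difference in response at 2 h, and no gene of all those tested did (0%). At an unadjusted p under 0.05 that comparison held 1 member, Myc, and 5.64% of all genes.

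By 4 h the same genes were lower almost throughout in HET. In HET 34 members fell and 2 rose, so that 36 of 38 passed, where 36.4% of all genes did (20.7% lower). The median change was −0.84, against 0.09 over all genes, and 35 members had no overlap between untreated and 4 h arrays, as 46.5% of all genes had none. KO cells showed 6 members that fell and 1 that rose, where 15.8% of all genes passed (9.28% lower). Their median was −0.25, against 0.02 over all genes, with 33 of 38 values below 0. In 21 members the KO arrays at 4 h did not overlap the untreated ones, as in 41% of all genes. These contrasts chose the members, and the counts describe the choice.

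Without HET replicate 1 the HET count at 4 h was 29 (27 lower, 2 higher, where 35.5% of all genes passed) with a median of −0.67. Nhp2, Gar1, Bop1, Pes1, Rrp15, Gnl2 and Mybbp1a were the members that no longer passed. The KO count, whose own arrays were all kept, was then 17 (16 lower, where 27.7% of all genes passed), since all groups share the estimate of the spread. With replicate number as a block within genotype the KO count was 12, of which 11 were lower. The KO count was 3, 4 and 1 without KO replicate 1, 2 and 3.

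**Figure D2:**
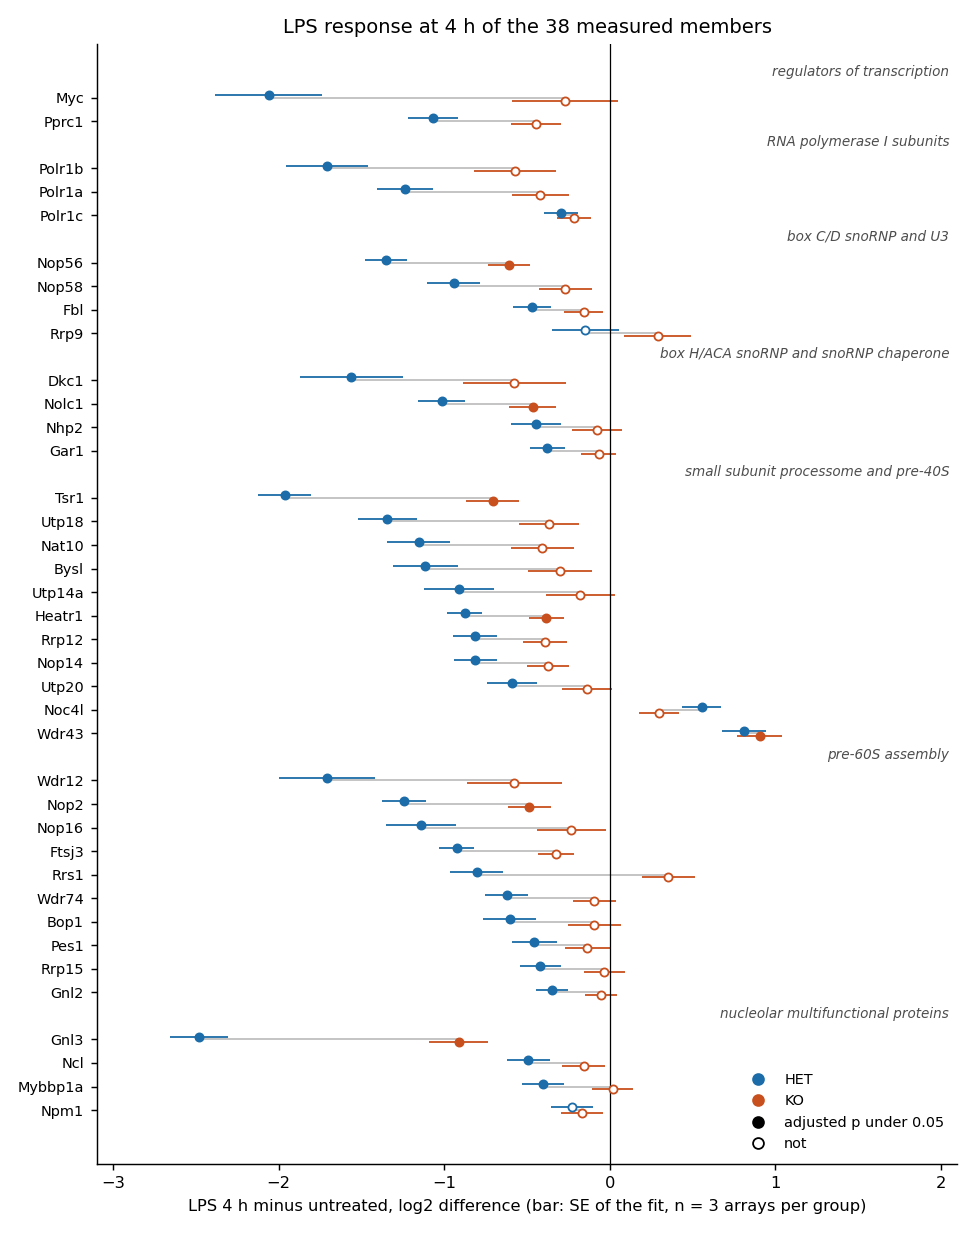
Change after 4 h of LPS against untreated cells (x axis, log2 difference with the SE of the fit, 3 arrays per group) for the 38 measured members, grouped by role, in HET (blue) and KO (orange), filled where the adjusted p was under 0.05. In 37 of 38 members the KO value lies to the right of the HET value, and Wdr43 and Noc4l are the members that rose in HET.

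The difference in response at 4 h was above 0 for 37 of 38 members, with a median of 0.54 against −0.02 over all genes. It passed for Gnl3 alone, where 0.0513% of all genes passed. At an unadjusted p under 0.05 it held 27 members, all positive, and 7.2% of all genes. With the arrays of HET replicate 1 left out the median was 0.29, with 36 members above 0, and Gnl3 (1.42, adjusted p = 0.0362) and Rrs1 (1.25, adjusted p = 0.0436) passed, where 0.267% of all genes did. With replicate number as a block within genotype 6 members passed: Gnl3, Tsr1, Rrs1, Nop56, Nop2 and Utp18. The median stayed above 0 in each of the 33 alternatives run, between 0.29 and 0.69. The members were listed because they fell less in KO, so a positive median follows from that choice. These counts and medians describe the choice, and the alternatives reuse the same arrays.

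Taken replicate by replicate, the median change of the members at 4 h was −1.25, −0.61 and −0.66 in HET and −0.27, −0.15 and −0.21 in KO. Every HET value lay below every KO value. At 2 h the medians were −0.44, −0.05 and −0.01 in HET and 0.08, −0.05 and −0.02 in KO, which overlap.

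RNA polymerase I subunits had a median difference in response of 0.82, or 0.42 without HET replicate 1, and all 3 fell in HET in either case. Polr1b, the second-largest core subunit, read 11.22, 10.59 and 10.93 in untreated HET, 10.23, 10.75 and 10.50 at 2 h, and 8.47, 9.62 and 9.52 at 4 h. Polr1b in KO read 10.40, 10.83 and 10.81 untreated, 10.73, 10.71 and 10.91 at 2 h, and 9.99, 10.28 and 10.05 at 4 h. The 4 h arrays of the genotypes did not overlap, and HET replicate 1 was the lowest by over 1 log2 unit. Polr1b fell by 1.71 in HET (SE 0.248, adjusted p = 7.19e-05), KO stood at −0.57 (adjusted p = 0.148), and the difference in response was 1.13 (SE 0.35, adjusted p = 0.455), or 0.62 without HET replicate 1.

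Polr1c, a subunit shared with RNA polymerase III, changed least in this group. It read 10.42, 10.44 and 10.59 in untreated HET, 10.31, 10.75 and 10.57 at 2 h, and 10.08, 10.27 and 10.22 at 4 h. Polr1c in KO read 10.45, 10.59 and 10.44 untreated, 10.80, 10.59 and 10.68 at 2 h, and 10.28, 10.29 and 10.27 at 4 h. In both genotypes the 4 h arrays lay below the untreated ones, by similar amounts. Polr1c fell by 0.30 in HET (adjusted p = 0.0332), KO stood at −0.22 (adjusted p = 0.191), and the difference in response was 0.08 (SE 0.144), which turned negative in 1 of 33 alternatives. Polr1a, the largest subunit, fell by 1.24 in HET and stood at −0.42 in KO.

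Box C/D snoRNP genes, whose products guide methylation of ribosomal RNA, fell in HET except for Rrp9. Nop56, a scaffold of these particles, read 12.90, 12.47 and 12.48 in untreated HET, 12.31, 12.43 and 12.25 at 2 h, and 11.11, 11.45 and 11.23 at 4 h. Nop56 in KO read 12.40, 12.54 and 12.57 untreated, 12.46, 12.47 and 12.54 at 2 h, and 11.73, 12.10 and 11.86 at 4 h. It was lower at 4 h in both genotypes, and no HET array reached the lowest KO array at that time. Nop56 fell by 1.35 in HET (adjusted p = 1.22e-06) and by 0.61 in KO (adjusted p = 0.00292), and its difference in response was 0.74 (SE 0.177, adjusted p = 0.301).

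Fbl, the methyltransferase fibrillarin, had the smallest difference of this group. HET arrays read 10.99, 10.91 and 10.80 for Fbl untreated, 10.81, 10.86 and 10.96 at 2 h, and 10.08, 10.56 and 10.64 at 4 h. Fbl in KO read 10.84, 10.96 and 10.93 untreated, 10.87, 10.86 and 10.82 at 2 h, and 10.66, 10.83 and 10.77 at 4 h. HET replicate 1 was low at 4 h, and the other HET arrays lay just under the lowest KO array. Fbl fell by 0.47 in HET (adjusted p = 0.0052), KO stood at −0.16 (adjusted p = 0.424), and the difference in response was 0.31 (SE 0.163), or 0.09 without HET replicate 1. Nop58, the other scaffold, fell by 0.94 in HET, and the U3 protein Rrp9 had values of −0.15 in HET and 0.29 in KO, neither of which passed.

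Box H/ACA genes, whose products guide pseudouridylation, all fell in HET, and without HET replicate 1 only Dkc1 and Nolc1 of the 4 passed, with a median of −0.48. Dkc1, the pseudouridine synthase dyskerin, read 9.88, 9.87 and 9.68 in untreated HET, 9.18, 9.75 and 9.58 at 2 h, and 7.19, 8.996 and 8.56 at 4 h. Dkc1 in KO read 9.65, 9.65 and 10.03 untreated, 9.54, 9.58 and 9.71 at 2 h, and 9.04, 9.22 and 9.32 at 4 h. HET replicate 1 at 4 h stood far below the other arrays, and HET replicate 2 was close to the lowest KO array. Dkc1 fell by 1.56 in HET (adjusted p = 0.0011), KO stood at −0.58 (adjusted p = 0.263), and the difference in response of 0.99 (SE 0.44, adjusted p = 0.666) was 0.42 without HET replicate 1.

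Gar1, a structural protein of the same particles, read 10.27, 10.08 and 10.08 in untreated HET, 10.16, 10.20 and 10.17 at 2 h, and 9.51, 9.98 and 9.81 at 4 h. Gar1 in KO read 9.96, 10.04 and 10.17 untreated, 10.03, 10.24 and 10.22 at 2 h, and 10.02, 9.94 and 10.01 at 4 h. Its genotypes overlapped at 4 h. Gar1 fell by 0.38 in HET (adjusted p = 0.0118), KO stood at −0.07, and the difference in response was 0.31 (SE 0.149), or 0.12 without HET replicate 1. The chaperone Nolc1 fell by 1.02 in HET and by 0.47 in KO, and Nhp2 fell by 0.45 in HET.

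Small subunit factors included both a large fall, that of Tsr1, and the members that rose. Tsr1, needed for late maturation of the small subunit, read 10.88, 10.34 and 10.33 in untreated HET, 10.06, 10.22 and 10.11 at 2 h, and 8.48, 8.72 and 8.47 at 4 h. Tsr1 in KO read 10.13, 10.23 and 10.47 untreated, 10.26, 10.40 and 10.39 at 2 h, and 9.22, 9.78 and 9.71 at 4 h. All HET arrays at 4 h lay below all KO arrays. Tsr1 fell by 1.96 in HET (3.90-fold, adjusted p = 3.57e-07) and by 0.71 in KO (1.63-fold, adjusted p = 0.00563). Its difference in response was 1.26 (SE 0.225, adjusted p = 0.0814), or 1.04 without HET replicate 1 (adjusted p = 0.0731), and it passed with the block within genotype.

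Noc4l, a partner of Nop14 in the small subunit precursor, was the member whose difference in response was negative. It read 10.30, 10.31 and 10.57 in untreated HET, 10.94, 10.63 and 10.77 at 2 h, and 10.92, 10.98 and 10.94 at 4 h. Noc4l in KO read 10.18, 10.60 and 10.40 untreated, 10.46, 10.25 and 10.57 at 2 h, and 10.71, 10.79 and 10.58 at 4 h. All HET arrays lay above all KO arrays at both times of LPS. Noc4l rose by 0.55 in HET at 4 h (adjusted p = 0.00193), KO stood at 0.30 (adjusted p = 0.113), and the difference in response was −0.26 (SE 0.168, adjusted p = 0.81).

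Wdr43, a component of the small subunit processome, rose in both genotypes at 4 h, by 0.81 in HET and 0.90 in KO. The other 8 genes of this group fell in HET, from −0.59 (Utp20, a processome scaffold) to −1.34 (Utp18, a WD-repeat protein of the same complex). In between were Bysl (−1.11), Nat10 (−1.16), an acetyltransferase for ribosomal RNA, Heatr1 (−0.88), Utp14a (−0.91), Nop14 (−0.81) and Rrp12 (−0.81). In KO Heatr1 also fell (−0.38), and the rest, from Utp20 (−0.14) to Nat10 (−0.41), did not pass.

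**Figure D3:**
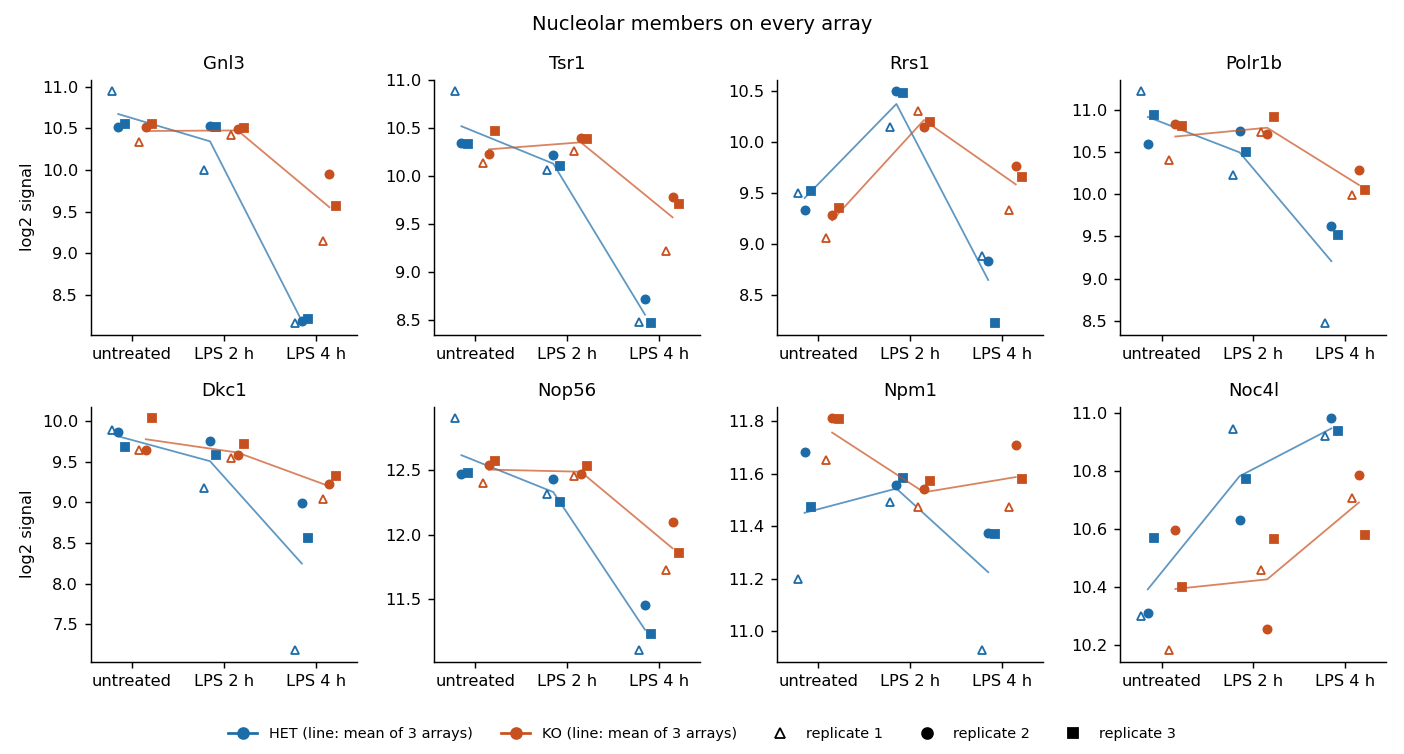
Log2 signal (y axes, each with its own scale) of 8 nucleolar genes untreated and at 2 h and 4 h of LPS (x axis), with HET in blue, KO in orange, symbols for the replicate numbers and lines through the means of 3 arrays. Gnl3 drops to a mean of 8.19 in HET and 9.55 in KO by 4 h, Rrs1 rises at 2 h in both genotypes, and Noc4l rises in HET.

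All 10 measured large subunit factors fell in HET at 4 h, and 6 of the 10 passed without HET replicate 1. Rrs1, which helps to bring the small ribosomal RNA of the large subunit into its precursor, read 9.51, 9.34 and 9.52 in untreated HET, 10.15, 10.50 and 10.48 at 2 h, and 8.89, 8.83 and 8.23 at 4 h. Rrs1 in KO read 9.06, 9.29 and 9.35 untreated, 10.30, 10.15 and 10.20 at 2 h, and 9.34, 9.77 and 9.66 at 4 h. It thus went up at 2 h in both genotypes, and at 4 h lay below the untreated level on every HET array. The changes were 0.92 at 2 h and −0.80 at 4 h in HET (adjusted p = 0.00114 at 4 h), and 0.99 and 0.35 in KO (adjusted p = 0.174 at 4 h). Its difference in response at 4 h was 1.16 (SE 0.228, adjusted p = 0.133).

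Gnl2, a nucleolar GTPase of large subunit maturation, was at the low end of the group. It read 10.94, 10.84 and 10.67 in untreated HET, 11.21, 11.00 and 11.04 at 2 h, and 10.30, 10.62 and 10.47 at 4 h. Gnl2 in KO read 10.68, 10.70 and 10.81 untreated, 10.84, 10.96 and 10.92 at 2 h, and 10.58, 10.71 and 10.73 at 4 h. The genotypes overlapped at 4 h. Gnl2 fell by 0.35 in HET (adjusted p = 0.0106), KO stood at −0.06, and the difference in response was 0.29 (SE 0.136), or 0.15 without HET replicate 1.

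Wdr12, Pes1 and Bop1 form a complex needed for large subunit processing, and their falls in HET were unequal, at −1.71 for Wdr12, −0.46 for Pes1 and −0.60 for Bop1. Nop2, a methyltransferase for large subunit RNA, fell in both genotypes, by 1.25 in HET and by 0.49 in KO. Nop16 fell by 1.14, Ftsj3, a further RNA methyltransferase, by 0.92, Wdr74 by 0.62 and Rrp15 by 0.42 in HET. Among these 8 genes Nop2 alone fell in KO, and the others lay between −0.58 (Wdr12) and −0.03 (Rrp15).

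Gnl3 showed the largest fall of all members in HET and was the only member whose difference in response passed. Gnl3 encodes nucleostemin, a nucleolar GTPase abundant in dividing cells. HET arrays read 10.94, 10.52 and 10.55 for Gnl3 untreated, 9.99, 10.52 and 10.51 at 2 h, and 8.17, 8.19 and 8.22 at 4 h. Gnl3 in KO read 10.33, 10.51 and 10.56 untreated, 10.43, 10.49 and 10.51 at 2 h, and 9.15, 9.95 and 9.56 at 4 h. The HET arrays at 4 h lay within 0.1 log2 unit of each other and all below the KO arrays, with KO replicate 1 the lowest of those.

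Gnl3 fell by 2.48 in HET (5.59-fold, SE 0.177, adjusted p = 1.02e-07) and by 0.91 in KO (1.88-fold, adjusted p = 0.00187) at 4 h. Its difference in response was 1.57 (SE 0.25, limma adjusted p = 0.0391). That call was made in 11 of 33 alternatives, with values from 1.37 to 1.77 and adjusted p from 0.00423 to 0.419, and it was absent when most arrays were left out singly. KO minus HET at 4 h for Gnl3, 1.36 (adjusted p = 0.000798), passed in 32 of 33 alternatives, all but the fit of its own 6 arrays alone.

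Npm1, nucleophosmin, a histone chaperone and one of the most abundant nucleolar proteins, changed little. HET arrays read 11.20, 11.68 and 11.47 for Npm1 untreated, 11.49, 11.56 and 11.58 at 2 h, and 10.93, 11.37 and 11.37 at 4 h. Npm1 in KO read 11.65, 11.81 and 11.81 untreated, 11.47, 11.54 and 11.57 at 2 h, and 11.47, 11.71 and 11.58 at 4 h. Untreated and 4 h arrays overlapped in both genotypes. The changes at 4 h were −0.23 in HET (adjusted p = 0.169) and −0.17 in KO (adjusted p = 0.441), and the difference in response was 0.06 (SE 0.181), which turned negative in 4 of 33 alternatives. The HET change of Npm1 passed in 2 of 33 alternatives (lowest limma adjusted p = 0.0403). Ncl, nucleolin, fell by 0.49 in HET, and Mybbp1a, a nucleolar protein that binds Myb, fell by 0.40. Neither passed in KO, at −0.16 for Ncl and 0.02 for Mybbp1a.

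Directly compared at each time, KO and HET differed in these genes mainly at 4 h. Untreated, no member passed, where 0.416% of all genes did. The median was −0.10, against −0.02 over all genes, with −0.02 without HET replicate 1 and −0.15 without HET replicate 3. Of the members 1, Npm1 at 0.31, was at an unadjusted p under 0.05, as were 4.44% of all genes. At 2 h Myc alone passed, where 2.76% of all genes did, with a median of 0.03 that was −0.02 with quantile normalization and −0.01 without HET replicate 1. At 4 h 8 members were higher in KO and none lower, where 2.42% of all genes passed (1.32% higher), with a median of 0.44 against −0.06 over all genes. In 28 members the arrays of the genotypes did not overlap, as in 27.3% of all genes. Because the members were chosen for falling less in KO, these values at 4 h describe the choice too.

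The 8 were Myc (1.47), Gnl3 (1.36), Tsr1 (1.02), Utp18 (0.95), Rrs1 (0.94), Nop56 (0.63), Nop2 (0.55) and Ftsj3 (0.43). Of 33 alternatives, Ftsj3 passed in 10 and Nop2 in 14, and the others in 24 (Myc) to 32 (Gnl3). Nop2 and Ftsj3 were both lost with centred arrays, with quantile normalization and with replicate number as a block within genotype. Without HET replicate 1 there were 11, where 4.52% of all genes passed, with a median of 0.27. Ftsj3 was then lost, and Wdr12, Nop16, Polr1a and Pprc1 were added. The count was 5, 1 and 1 without KO replicate 1, 2 and 3, and 0 when only the 6 arrays at 4 h were fitted.

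**Figure D4:**
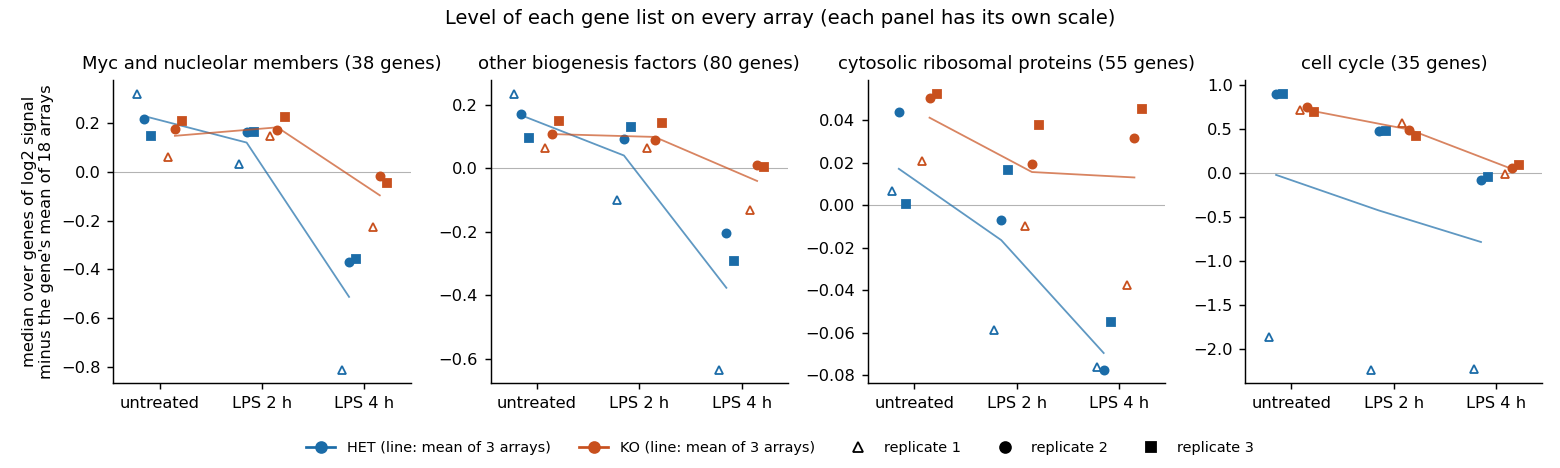
Median over the genes of a list of the log2 signal minus the gene's mean over all 18 arrays (y axes, each with its own scale) untreated and at 2 h and 4 h of LPS (x axis), with HET in blue, KO in orange, symbols for the replicate numbers and lines through the means of 3 arrays. The members stand between −0.81 and −0.36 on the HET arrays at 4 h and between −0.23 and −0.02 on the KO arrays, while cell cycle genes are low on HET replicate 1 at every time.

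The array medians show the same order. On the HET arrays at 4 h the members stood at −0.81, −0.37 and −0.36 relative to each gene's mean, and on the KO arrays at −0.23, −0.02 and −0.05. HET replicate 1 was the lowest array, and no HET array reached a KO array at 4 h. Untreated HET arrays stood at 0.32, 0.22 and 0.15 and untreated KO arrays at 0.06, 0.17 and 0.21, which overlap.

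Other genes of ribosome production were read beside the members to place these values. Of 80 other ribosome biogenesis factors measured, 63 passed in HET at 4 h (58 lower, 5 higher, median −0.51) and 12 in KO (6 lower, 6 higher, median −0.15). Of all genes 36.4% passed in HET (20.7% lower) and 15.8% in KO (9.28% lower), and the KO count of 12 lies near that share. Over the alternatives the count ran from 40 to 64 in HET and from 2 to 30 in KO. In KO against HET at 4 h 11 of these factors were higher and none lower, where 2.42% of all genes passed (1.32% higher). That count of 11 ran from 0 to 28 over the alternatives. Their difference in response had a median of 0.37, with 74 of 80 above 0 and none that passed, and a median of 0.23 without HET replicate 1. Their medians have the same sign as those of the members and are smaller, and the members were picked for the size of theirs.

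The counts at 4 h that follow stand beside 36.4% of all genes that passed in HET and 15.8% in KO. Genes for the ribosome's own proteins moved little: of 55 measured, 6 fell and 1 rose in HET at 4 h, with a median of −0.10, and the median difference in response was 0.07. Over the alternatives 2 to 28 of them passed in HET. Of 9 other RNA polymerase I genes 5 fell in HET, with a median difference in response of 0.22. Of 19 RNA polymerase III genes, 13 were lower and 1 higher in HET and 5 lower in KO, and the median difference was 0.22. Over the alternatives 9 to 15 of them passed in HET and 1 to 11 in KO. Of 30 Myc targets outside the nucleolus, 13 fell and 2 rose in HET and 4 fell in KO. Over the alternatives 7 to 22 of these targets passed in HET and 0 to 13 in KO. Their median difference in response was 0.40, or 0.16 without HET replicate 1, in which these targets lay 1.02 lower than in the other HET arrays at 4 h. Of 35 cell cycle genes 3 fell in HET and 3 in KO, with median changes at 4 h of −0.99 and −0.67. These counts depended on the fit: over the alternatives 2 to 31 passed in HET and 1 to 33 in KO. In KO 34 of these genes had no overlap between untreated and 4 h arrays, as 41% of all genes had none. In HET 3 of these genes had none, as 46.5% of all genes. Values below 0 were found for 32 of them in HET and 34 in KO. Cell cycle genes had a median difference of 0.16, or 0.32 without HET replicate 1, and over the alternatives it ran from −0.53 to 1.00. No gene of these lists passed in the difference in response at 4 h, where 0.0513% of all genes did. The LPS reference genes mostly rose in both genotypes, 14 of 15 in HET and 12 of 15 in KO at 4 h. At 2 h 12 rose and 1 fell in HET, and 11 rose in KO, where 15.6% and 3.35% of all genes passed. Compared directly at 2 h, 5 of the 15 passed between the genotypes (4 lower in KO, 1 higher, median −0.45), or 3 without HET replicate 1, and at 4 h none did. Of all genes 2.76% passed between the genotypes at 2 h and 2.42% at 4 h. Their median difference in response was −0.40 at 2 h and 0.03 at 4 h, and none of them passed in it.

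**Figure D5:**
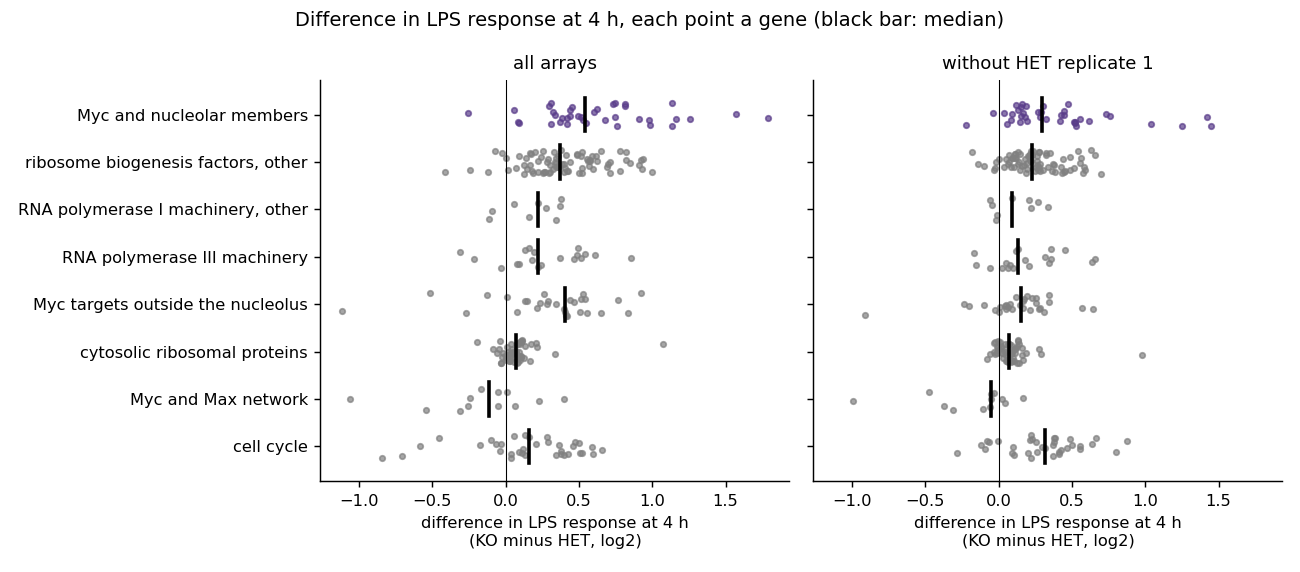
Difference in LPS response at 4 h (x axis, KO minus HET, log2) of each gene, by list, with all arrays (left) and without the 3 arrays of HET replicate 1 (right), black bars marking medians. The members' median is 0.54 on the left and 0.29 on the right, and that of the other ribosome biogenesis factors is 0.37 and 0.23.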

How the data were processed

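RNA from 18 macrophage samples was hybridised to Affymetrix gene arrays, 1 array per sample. The authors deposited log2 values, and Partek 6.5 and RMA are named in the submitters' processing notes. The sources used here give no further scaling step and no genome build. The table held 25344 probe sets; 1530 assigned to several genes and 2677 with no gene were left out. Of the 19475 genes, 915 had several probe sets, and the one with the highest mean over all arrays was used. Symbols are those of the platform.

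With limma 3.58.1 (lmFit and eBayes, R 4.3.3), a mean per group was estimated for every gene. The residual degrees of freedom were 12, the prior SD was 0.144, with Benjamini-Hochberg adjustment over all genes in each contrast. On simulated data the fit recovered 12% of differences in response of 0.5 log2 units at 4 h and 65% of differences of 1, over 19475 genes. The simulated arrays varied independently of each other, so these shares need not hold for the real arrays. Deviations from the group means were correlated across genes between arrays that shared number and genotype (r from 0.32 to 0.80, 18 pairs). Between genotypes, r for arrays of the same number had either sign (median −0.076, from −0.353 to 0.39, 27 pairs). Replicate number within genotype was therefore also fitted as a random block (correlation 0.398). Those values are given beside some of the results they change, and not beside all.

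Further alternatives were median centring of each array, quantile normalization, a filter on genes under the 40th percentile of signal, averaged probe sets, a robust prior with an intensity trend, array weights, a fit of the contrast's arrays alone, replicate number as a fixed block, and each array or replicate number of a genotype left out. The members, the other lists and the rules were chosen with earlier results of these data known. In each role group the members with the largest and the smallest difference in response at 4 h are given on every array, and so is Myc; network genes are named where they passed. Promoters are from RefSeq. Python 3.11.15 with matplotlib 3.10.9 drew the figures.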

Additional observations from a re-analysis of the deposited data

Results flagged for a closer look

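Gnl3 differed between the genotypes in its LPS response at 4 h by the test of the difference itself, with a value of 1.57 (limma adjusted p = 0.0391): it fell on all 3 replicates of both genotypes, further in HET. Gnl3 is among the genes chosen because they fell less in KO, so the value is a description. The call was made in 11 of 33 alternatives, with adjusted p from 0.00423 to 0.419.

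For Myc the sign of KO minus HET changed between untreated and treated cells, although its mean was lower after LPS in both genotypes. The KO change did not pass at either time, and KO replicate 2 read 11.97 untreated and 12.03 at 4 h. Every untreated KO array lay below every untreated HET array (−0.32, which did not pass), and every treated KO array lay above every treated HET array. The change in the genotype difference was 1.64 from untreated to 2 h and 1.79 from untreated to 4 h, and neither passed in the limma fit (adjusted p = 0.50 and 0.33). Myc too was chosen for falling less in KO.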

How the results depend on the processing

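No member or count changed direction while called under any of the 33 alternatives run, and counts of passing members moved as follows. For KO minus HET at 2 h the count of 1 was 0 with centred arrays, with only the contrast's arrays and with replicate number as a block within genotype, and 0 to 1 when arrays were left out. It was 0 without HET replicate 1 or any KO replicate number, and among single arrays without the 2 h arrays of HET replicates 1 and 3, the untreated arrays of HET replicates 2 and 3, any untreated or 2 h KO array, or the 4 h array of KO replicate 3. For KO minus HET at 4 h the count of 8 was 14 with array weights, 0 with only the contrast's arrays, and 1 to 15 when arrays were left out. The labels do not say whether equal numbers pair samples across genotypes, and with replicate number as a fixed block the count was 19. It was 15 without the 4 h array of HET replicate 2, 13 without HET replicate 2 at all times, and 4, 2 and 3 without the 4 h array of HET replicate 1, KO replicate 2 or KO replicate 3. Dropping KO replicate 1, 2 or 3 at all times gave 5, 1 and 1. For HET at 2 h the count of 4 was 2 with only the contrast's arrays, 8 with the replicate block within genotype, and 2 to 7 when arrays were left out. It was 2 without HET replicate 3 at all times, the 2 h array of HET replicate 1 or the untreated array of HET replicate 2, and 7 without the 4 h array of HET replicate 1. For HET at 4 h the count of 36 stayed within 28 to 36 when arrays were left out. It was 24 with only the contrast's arrays and 37 with the block within genotype. For KO at 2 h the count of 1 was 4 with array weights, 2 with only the contrast's arrays, 2 with the block within genotype, and 0 to 2 when arrays were left out (0 without KO replicate 1, 2 without HET replicate 1). For KO at 4 h the count of 7 was 19 with array weights, 11 without dim genes, 16 with only the contrast's arrays, 12 with the block within genotype, and 1 to 17 when arrays were left out. Dropping HET replicate 1 at all times gave 17. It was 3, 4 and 1 without KO replicate 1, 2 or 3, 14 without the 4 h array of HET replicate 1, and 4 without the 4 h array of KO replicate 1 or the untreated array of KO replicate 3. For the difference in response at 4 h the count of 1 was 0 with centred arrays and with only the contrast's arrays, 3 with array weights, 6 with the block within genotype, and 0 to 2 when arrays were left out. It was 2 without the 4 h array of KO replicate 1, as it was when HET replicate 1 was dropped at all times. It was 0 without any other replicate number, and without any single array other than that one, the 2 h arrays of HET replicates 1 and 2, and the 4 h array of HET replicate 3, without which Myc passed (2.33, adjusted p = 0.0282) and Gnl3 did not. The counts untreated and for the difference in response at 2 h were 0 throughout. The block changed no other call count by over 1.5 times. Leaving out arrays leaves fewer arrays to estimate the spread; the cause of the other shifts was not tested. In the simulation, whose arrays varied independently, 12% of differences in response of 0.5 log2 units were recovered. The recovery on the real arrays was not tested. All members lay above the 40th percentile of mean signal.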

Other observations

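Ppan, a large subunit factor whose only probe set also matches B130055M24Rik, is not counted above. That probe set read 10.81, 10.34 and 9.04 as HET means untreated, at 2 h and at 4 h, and 10.65, 10.70 and 9.96 as KO means, and its source gene cannot be told apart.

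Wdr12 and Fbl each had a further probe set of their own. The difference in response at 4 h was 1.45 on the further probe set of Wdr12, against 1.13 on the one used, and 0.35 on that of Fbl, against 0.31.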
